A study of Mus musculus with 3 samples.

Results

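Synaptic adhesion and organizer molecules hold the membranes of a synapse together and recruit the release machinery on one side and the receptors on the other. This set holds 47 genes, chosen by name from the listed neurexins, neuroligins, leucine-rich repeat proteins, latrophilins, cerebellins and related families, among 46073 gene rows in the table. All 47 were found in it by symbol, 1 row each. The tissue was medial prefrontal cortex (mPFC), a frontal cortical region, of naïve C57BL/6 mice aged 3 months, with no treatment and no altered allele in the labels. The series holds 3 samples, MeDIP DNA, input DNA and RNA, and the RNA sample carried the values used here, while the MeDIP and input data were not analysed here. The design text states 3 replicates for RNA-seq, but the table's 2 value columns were equal in 46073 of 46073 rows and were counted as 1 sample. No value therefore has an error, differences between genes have no replicate check, and no p-value is given.

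Neurexins and the LAR-type receptor phosphatases sit mainly on the axon side, where they bind ligands across the cleft and gather liprins, CASK and other proteins of the release site. Their ligands on the dendrite include neuroligins and several leucine-rich repeat families (LRRTM, SLITRK, LRFN), and some of these ligands bind scaffold proteins through their tails. Cerebellins and C1q-like proteins are secreted and bridge presynaptic and postsynaptic receptors, and MDGA proteins mask neuroligins from neurexins. In bulk tissue a level is a sum over cell types, and fewer cells of a type and less RNA per cell cannot be told apart.

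Levels are given as FPKM, a read density scaled for transcript length and library size, on which genes of 1 sample can be ranked. Genes at 1 FPKM or more are called detected. Of the 47 members, 44 (93.6%) were detected, beside 58.6% of the 20635 protein-coding rows and 31.5% of all rows. At 10 FPKM or more there were 26 members (55.3%), beside 29.1% of protein-coding rows. At 100 FPKM or more there were 3 members (6.38%), beside 2.82% of protein-coding rows. The median over all 47 members was 11.995 FPKM, with quartiles at 5.20 and 28.5 FPKM, beside a median of 2.59 FPKM over protein-coding rows. Beside detected protein-coding rows only, whose median was 9.86 FPKM, 26 of the 47 members stood above and 21 below.

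**Figure D1:**
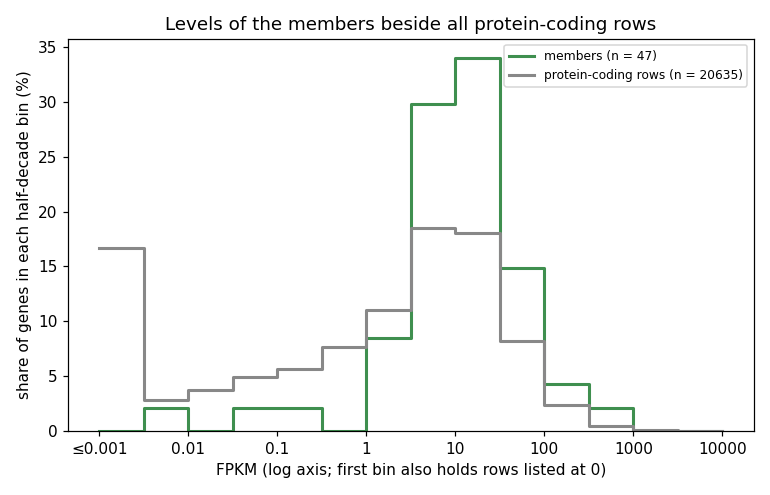
Share of genes (y axis, %) in each bin of FPKM (x axis, log scale) for the 47 members (green) and the 20635 protein-coding rows (grey), with rows listed at 0 put in the first bin. Most members lie between 1 and 100 FPKM, 3 lie under 1 FPKM and none is listed at 0.

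The library held the RNA of neurons and of glia, and some markers of neighbouring tissue were detected too. No marker list was specific to cortex. All 8 neuronal markers were detected, from Gad2 at 21.2 to Snap25 at 1279 FPKM, and the astrocyte, oligodendrocyte, precursor, microglial and vascular markers were detected in 25 of 25 cases. Of 4 cerebellar markers only Pcp2 was detected, at 2.13 FPKM, with Fat2 lowest at 0.0117 FPKM. Of 5 hippocampal and thalamic markers 3 were detected, Spink8 highest at 22.0 and Gbx2 lowest at 0.0192 FPKM. The 3 choroid plexus markers ranged from Kcnj13 at 8.57 to Ttr at 566 FPKM. The part of glia or of neighbouring tissue in any member's level was not tested.

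Median levels differed between the role groups to which the members were assigned. The role was assigned to each gene and not measured here, and the immunoglobulin adhesion and inhibitor groups name no side of the synapse. The 8 presynaptic receptors had a median of 29.7 FPKM and all were at 10 FPKM or more. The 24 postsynaptic ligands had a median of 10.5 FPKM, and 12 of them were at 10 FPKM or more. The 8 secreted organizers had a median of 2.69 FPKM, and 1 of them was at 10 FPKM or more. The 5 immunoglobulin adhesion genes were higher than most of the others, with a median of 87.7 FPKM and a lowest value of 37.2 FPKM. The 2 inhibitors stood at 3.55 and 5.45 FPKM. The immunoglobulin adhesion genes and the postsynaptic ligands each held about the same share of the members' summed FPKM, 38.1% over 5 genes and 37.9% over 24 genes, while the secreted organizers held 2.61%. Nptn, Clstn1 and Clstn3 together held 47.1% of that sum. The 4 X-linked members, Nlgn3, Slitrk4, Slitrk2 and Il1rapl1, had a median of 5.02 FPKM, against 12.8 FPKM over the 43 autosomal members, and the ranges overlap.

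**Figure D2:**
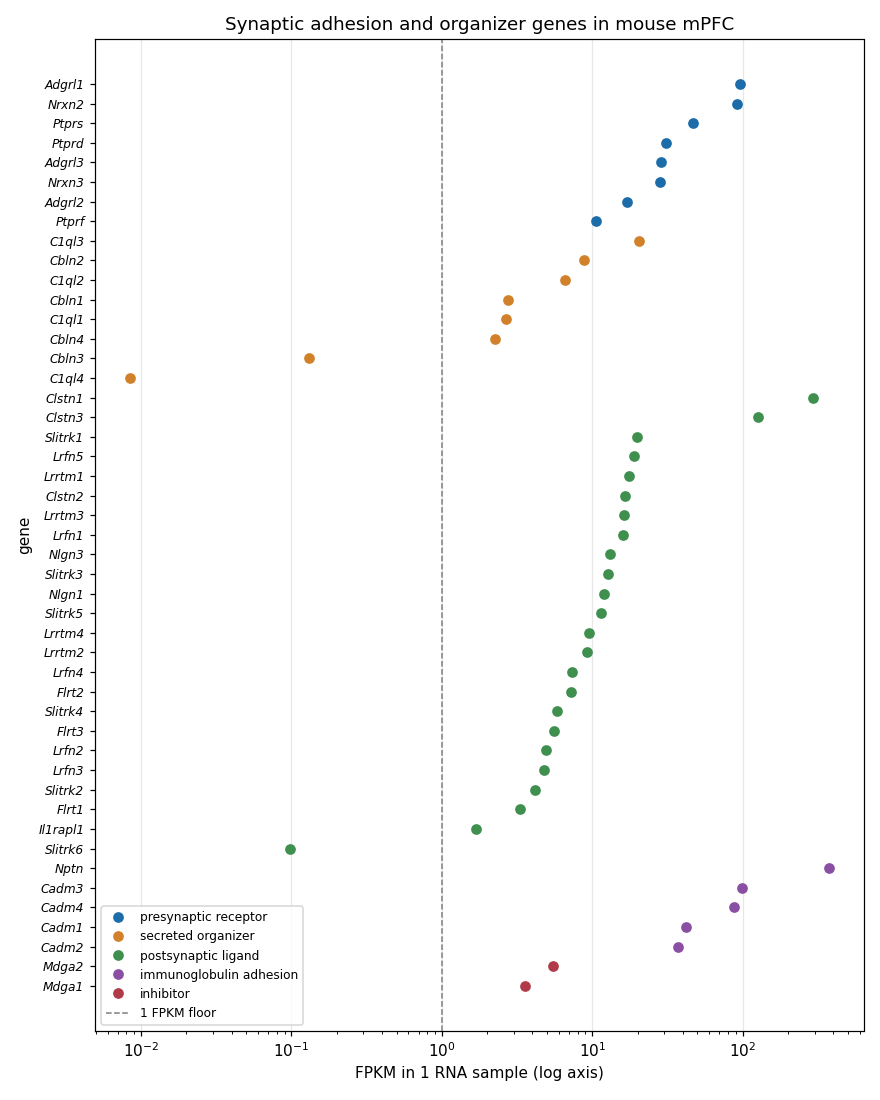
FPKM (x axis, log scale) of each of the 47 members (y axis) in the RNA sample, coloured by role and sorted by level within each role; the dashed line marks 1 FPKM. The presynaptic receptors and immunoglobulin adhesion genes all lie at 10 FPKM or more, and Cbln3, Slitrk6 and C1ql4 lie left of the line.

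Among the presynaptic receptors, Adgrl1 and Nrxn2 were highest and nearly level. Adgrl1, a latrophilin that binds teneurins and FLRT proteins (chromosome 8, 83900098 to 83941954, GRCm38), stood at 96.6 FPKM. Nrxn2, a neurexin that binds neuroligins, LRRTM proteins and cerebellins (chromosome 19, 6418756 to 6533217), stood at 91.9 FPKM. Its paralog Nrxn3 (chromosome 12, 88722701 to 90334935) reached 28.4 FPKM, and Nrxn2 was 3.24-fold higher. Values are per gene, so the long and short neurexin forms, which start at different promoters, were not told apart. The latrophilins Adgrl3 and Adgrl2 were at 28.7 and 16.9 FPKM, and Adgrl1 held 67.9% of the sum over the 3 latrophilins. The LAR-type phosphatases, which bind SLITRK, LRFN and other ligands, were spread more evenly. Ptprs stood at 47.004 FPKM, Ptprd at 30.7 FPKM and Ptprf at 10.5 FPKM, which put Ptprs 1.53-fold above Ptprd and 4.47-fold above Ptprf.

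Secreted organizers ranged from 0.00845 to 20.5 FPKM. C1ql3, a ligand of the adhesion receptor Adgrb3 (chromosome 2, 13001887 to 13010864), was highest at 20.5 FPKM. C1ql2 followed at 6.57 FPKM, 3.13-fold lower than C1ql3, and C1ql1, known as the climbing fibre organizer of the cerebellum, was at 2.66 FPKM. C1ql4 (chromosome 15, 99084086 to 99090674) was the lowest member of the whole set at 0.00845 FPKM, 2429-fold below C1ql3. A ratio that large rests on a value near 0, whose counting error is unknown here. Among cerebellins, which link neurexins to delta glutamate receptors, Cbln2 (chromosome 18, 86711061 to 86718283) was highest at 8.82 FPKM. Cbln1, the cerebellin of cerebellar granule cells, stood at 2.73 FPKM and Cbln4, which binds neurexins and the netrin receptor Dcc, at 2.27 FPKM. Cbln3, known from cerebellar granule cells, where it pairs with Cbln1, was below the floor at 0.131 FPKM. The sum over the 4 C1q-like genes was 29.8 FPKM, 2.13 times the 14.0 FPKM of the 4 cerebellins.

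Of the postsynaptic ligands, the calsyntenins Clstn1 and Clstn3 were the highest, while Clstn2 lay within the range of the other families. Clstn1 (chromosome 4, 149585111 to 149648899), a cadherin-related membrane protein that also acts as a cargo adaptor of kinesin, was at 292 FPKM. Clstn3, which promotes synapse formation, was at 125.9 FPKM and Clstn2 at 16.5 FPKM. Clstn1 was 2.32-fold above Clstn3 and 17.7-fold above Clstn2. Nlgn3 and Nlgn1, postsynaptic receptors of neurexins, stood at 13.1 and 11.995 FPKM, a ratio of 1.09. Il1rapl1, a postsynaptic ligand of Ptprd, was the lowest detected member at 1.68 FPKM.

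The leucine-rich repeat families reached nearly the same summed level by different distributions. The 6 SLITRK genes summed to 54.1 FPKM, the 4 LRRTM genes to 52.5 FPKM and the 5 LRFN genes to 52.0 FPKM, while the 3 FLRT genes summed to 16.0 FPKM. LRRTM genes, whose proteins bind neurexins or heparan sulfate and promote excitatory synapses, were the most even of these. Lrrtm1 was at 17.5, Lrrtm3 at 16.2, Lrrtm4 at 9.58 and Lrrtm2 at 9.23 FPKM, so that the highest was 1.90-fold above the lowest. Among SLITRK genes, whose proteins bind LAR-type phosphatases, Slitrk1 led at 19.8 FPKM. Slitrk3, which acts at inhibitory synapses, was at 12.8 FPKM and Slitrk5 at 11.4 FPKM. Slitrk4 and Slitrk2, both on the X chromosome, were at 5.86 and 4.17 FPKM. Slitrk6, known from the inner ear and the eye, was at 0.0972 FPKM, 203-fold below Slitrk1. Among LRFN genes, also called SALMs, Lrfn5 and Lrfn1 were highest at 18.8 and 16.1 FPKM. Lrfn4 stood at 7.35, Lrfn2 at 4.94 and Lrfn3 at 4.81 FPKM. The FLRT genes, whose proteins bind latrophilins and Unc5 receptors, were low and close together, with Flrt2 at 7.17, Flrt3 at 5.54 and Flrt1 at 3.28 FPKM.

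Immunoglobulin adhesion genes were high throughout. Nptn, neuroplastin, an adhesion protein that is also a subunit of plasma membrane calcium pumps (chromosome 9, 58582240 to 58652879), was the highest member at 372 FPKM. It stood at the 99.7th percentile of protein-coding rows. The synaptic cell adhesion molecules Cadm3 and Cadm4 were at 99.2 and 87.7 FPKM, and Cadm1 and Cadm2 at 42.1 and 37.2 FPKM. Cadm4 is also known from myelinating glia, and the part of each cell type in its level was not tested. Cadm3 was 2.67-fold above Cadm2. Of the MDGA genes, Mdga2 was at 5.45 and Mdga1 at 3.55 FPKM, 1.54-fold apart.

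In 13 families with 2 or more listed members there were 64 pairs of paralogs. Of these, 39 differed 2-fold or more on the log2(FPKM + 1) scale and 25 did not. No share over pairs of other genes is given here. The count therefore does not show whether paralogs are more or less alike in level than other genes. Differences that involve low genes are understated on it. All 6 pairs of C1q-like genes, 3 of 3 calsyntenin pairs and 5 of 6 cerebellin pairs were apart. No pair of LRRTM genes (6), FLRT genes (3), MDGA genes (1) or neuroligins (1) was, although Flrt2 was 2.19-fold above Flrt1 as a plain ratio of FPKM. The highest gene was 2-fold or more above the next in 5 of the 13 families, led by Nrxn2, Adgrl1, Clstn1, C1ql3 and Cbln2.

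Partners inside the cell were detected in every case, and both list medians lay above the median of 11.995 FPKM over all members. The 11 presynaptic partners had a median of 20.9 FPKM, led by the adaptors Sdcbp at 76.6 and Lin7b at 63.3 FPKM and by Apba2, a Mint adaptor that binds neurexin tails, at 52.1 FPKM. Lin7a at 8.34 and the liprin Ppfia1 at 8.06 FPKM were lowest. The median of these 11 partners was below that of the presynaptic receptors, 29.7 FPKM. The 9 postsynaptic scaffold genes had a median of 35.3 FPKM, above that of the postsynaptic ligands, 10.5 FPKM. Dlg4, which encodes PSD-95, the main scaffold of excitatory synapses, was highest at 379.9 FPKM, and Dlg2 stood at 41.2 FPKM, with Magi1 at 8.02 and Magi3 at 6.48 FPKM lowest. Gphn, the scaffold of inhibitory synapses, was at 17.4 FPKM, 21.9-fold below Dlg4. Dlg4 was 31.7-fold above its ligand gene Nlgn1.

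All 17 extracellular partners of the members were detected, and their median was 7.41 FPKM, against 11.995 FPKM for the members. The brain angiogenesis inhibitor family genes Adgrb2 and Adgrb1 were highest at 81.4 and 79.3 FPKM, followed by Unc5a at 29.9 FPKM. Dcc was lowest at 1.499 FPKM. Adgrb3, the receptor of C1q-like proteins, stood at 21.0 FPKM, 1.03 times C1ql3. Grid1, a delta glutamate receptor, was at 11.1 FPKM, 4.08 times Cbln1. Tenm2, a teneurin that binds latrophilins, was at 10.9 FPKM, 0.113 times Adgrl1. Il1rap, a ligand of Ptprd, was at 11.9 FPKM, 0.386 times Ptprd, and Ntrk3, a ligand of Ptprs, was at 15.8 FPKM, 0.337 times Ptprs. Gpc4, a glypican bound by Lrrtm4, was at 5.62 FPKM, 0.587 times Lrrtm4.

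Beside other surface proteins, the members' median of 11.995 FPKM was 0.531 times that of the 5 netrin-G and NGL family genes (22.6 FPKM). It was 1.39 times that of 24 glutamate receptor genes (8.62 FPKM) and 2.30 times that of 31 semaphorin, plexin and neuropilin genes (5.22 FPKM). The share at 10 FPKM or more was 55.3% of members, 45.8% of glutamate receptors and 25.8% of the semaphorin list. The glutamate receptor list reached from Grm6 at 0.00253 and Grin3b at 0.0376 FPKM to Gria1 at 71.3, Gria2 at 101 and Grin1 at 217 FPKM. The semaphorin list reached from Sema3g at 0.835 and Sema3d at 0.855 FPKM to Sema6b at 18.01, Sema4a at 21.3 and Sema7a at 41.5 FPKM. All of these ranges overlap that of the members.

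**Figure D3:**
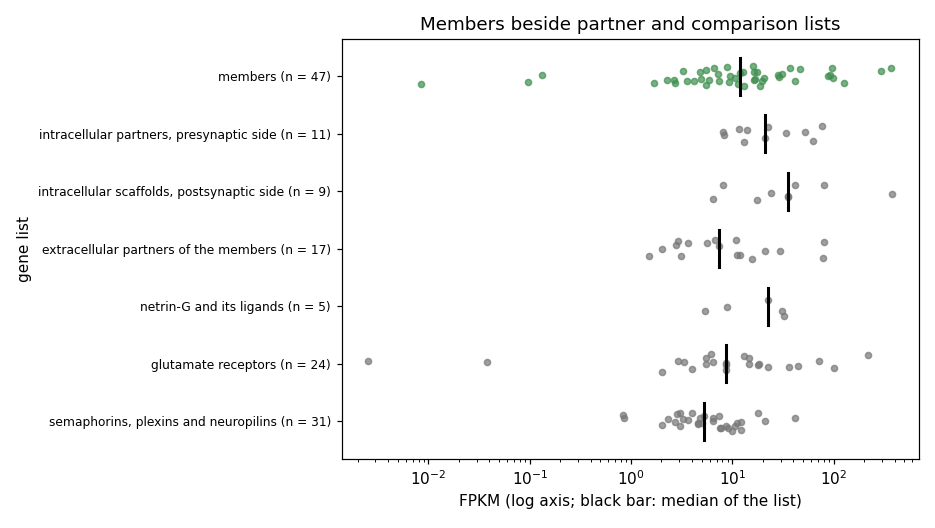
FPKM (x axis, log scale) of each gene in the 47 members (green) and in 6 partner and comparison lists (grey), with a black bar at each list's median; vertical scatter within a row carries no value. The members' median of 11.995 FPKM is above that of 3 lists and below that of the other three, and all rows overlap.

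Several members are among the largest genes of the genome, and others are nested inside unrelated genes. By RefSeq coordinates on GRCm38, 9 of 47 members (19.1%) span more than 500 kb, against 1.08% of protein-coding genes. Ptprd spans 2271 kb, Nrxn3 1612 kb, Il1rapl1 1375 kb, Cadm2 966 kb and Nlgn1 911 kb. At the other end, 14 members span less than 10 kb, among them all cerebellins and C1q-like genes. The 9 large genes were all detected, with a median of 16.5 FPKM and a range of 1.68 to 37.2 FPKM. The 24 members of 10 to 500 kb were all detected too, with a similar median of 16.6 FPKM and a range of 3.28 to 372 FPKM. The 14 small genes had a median of 5.69 FPKM, and all 3 undetected members were among them. The detected share of other protein-coding genes under 10 kb is not given here. Among the members, only the small genes thus had a low median, and these include all 8 secreted organizers. Across the detected members the Spearman rho of span and FPKM was 0.30, and across detected protein-coding rows it was -0.10. Over all 47 members rho was 0.40. These points come from 1 library and share families, so rho is a description.

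**Figure D4:**
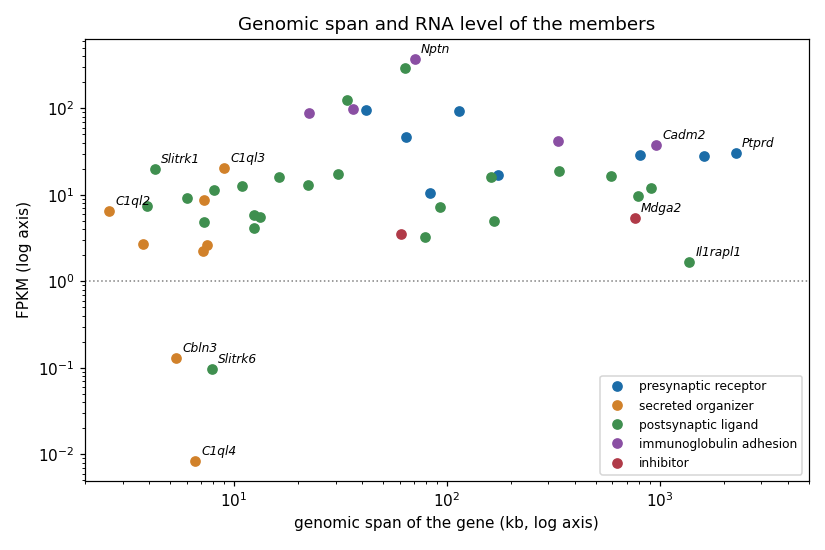
FPKM (y axis, log scale) against genomic span in kb (x axis, log scale) for the 47 members, coloured by role; the dotted line marks 1 FPKM. The 9 members over 500 kb lie between 1.68 and 37.2 FPKM, and the 3 members under the line all span less than 10 kb.

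Of the members, 6 (12.8%) lie wholly inside another protein-coding gene, against 2.35% of protein-coding genes. Lrrtm1 lies in the alpha-catenin gene Ctnna2, Lrrtm2 in Ctnna1 and Lrrtm3 in Ctnna3. Flrt1 lies in Macrod1 and Flrt3 in Macrod2, genes of macrodomain proteins, and Lrfn4 lies in Pcx, the gene of pyruvate carboxylase. Lrrtm3 at 16.2 FPKM was 44.6-fold above Ctnna3, which was below the floor at 0.364 FPKM. Lrrtm1 was at 17.5 FPKM and Ctnna2 at 26.3 FPKM, and Lrrtm2 was at 9.23 FPKM and Ctnna1 at 12.9 FPKM. Flrt1 was at 3.28 FPKM and Macrod1 at 3.93 FPKM, Flrt3 at 5.54 FPKM and Macrod2 at 12.7 FPKM, and Lrfn4 at 7.35 FPKM and Pcx at 13.8 FPKM. In the 4 pairs with both strands given (Lrrtm1, Lrrtm3, Flrt3 and Lrfn4), member and host lie on opposite strands. No source states whether strand was used in counting, so how reads were divided between a nested gene and its host is uncertain. In Cadm3, C1ql3 and Nptn the overlap with a protein-coding neighbour is partial. Cadm3 shares 1612 bases, nearly all of Ackr1, with Ackr1, on the same strand at 38.9 FPKM. It shares 18593 bases with Aim2, on the other strand at 2.03 FPKM. How reads were divided between Cadm3 and these neighbours is uncertain too, and strand could not separate Cadm3 from Ackr1. C1ql3 shares 1568 bases with Pter, on the other strand at 26.4 FPKM, and Nptn shares 24 bases with Rec114.

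The series concerns methylated DNA, which in mammals falls mainly on CpG dinucleotides, so the CpG content of promoters is given beside the levels. RefSeq windows of 300 bases on GRCm38.p6, from 250 before to 50 after a start site, were given for 35 members, and the most upstream window of each was used. In 6 members the start site of that window lies more than 1 kb inside the gene as RefSeq bounds it. These are Nrxn3 (71.8 kb), Adgrl2 (34.5 kb), Lrrtm1 (13.3 kb), C1ql4 (2.95 kb), Adgrl3 (1.49 kb) and Clstn1 (1.36 kb). In them a further start site upstream may not be covered. The sequences below are shown to set paralogs of unequal level side by side in 3 families, with Cbln3 added as the window poorest in CpG. Each runs 5′ to 3′ on the gene's strand, with CpG in capitals. Clstn1 (chr4:149586218-149586517, plus strand) holds 48 CpG and Clstn3 (chr6:124464735-124465034, minus strand) holds 8. C1ql3 (chr2:13010815-13011114, minus strand) holds 25 and C1ql4 (chr15:99087679-99087978, minus strand) holds 28. Slitrk1 (chr14:108914190-108914489, minus strand) holds 9 and Slitrk6 (chr14:110755100-110755399, minus strand) holds 4. Cbln3 (chr14:55884207-55884506, minus strand) holds 2, with the lowest ratio of observed to expected CpG among these members.
Clstn1: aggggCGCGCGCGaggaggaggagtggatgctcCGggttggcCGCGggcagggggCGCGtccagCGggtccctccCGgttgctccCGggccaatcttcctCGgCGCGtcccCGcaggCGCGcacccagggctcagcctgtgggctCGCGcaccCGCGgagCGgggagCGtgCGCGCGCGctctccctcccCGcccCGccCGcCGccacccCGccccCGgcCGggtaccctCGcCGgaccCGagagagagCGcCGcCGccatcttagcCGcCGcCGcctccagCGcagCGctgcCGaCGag
Clstn3: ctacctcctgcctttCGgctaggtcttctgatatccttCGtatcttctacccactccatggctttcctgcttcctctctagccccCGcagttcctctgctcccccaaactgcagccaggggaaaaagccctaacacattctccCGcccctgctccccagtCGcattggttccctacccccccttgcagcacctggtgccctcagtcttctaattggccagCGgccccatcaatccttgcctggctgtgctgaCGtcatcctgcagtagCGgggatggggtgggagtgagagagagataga
C1ql3: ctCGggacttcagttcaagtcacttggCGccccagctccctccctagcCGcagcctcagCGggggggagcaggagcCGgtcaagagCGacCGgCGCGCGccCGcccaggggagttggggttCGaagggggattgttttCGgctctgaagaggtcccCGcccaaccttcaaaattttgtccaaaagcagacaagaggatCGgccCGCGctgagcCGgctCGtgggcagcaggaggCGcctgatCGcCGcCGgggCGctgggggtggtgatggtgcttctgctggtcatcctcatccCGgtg
C1ql4: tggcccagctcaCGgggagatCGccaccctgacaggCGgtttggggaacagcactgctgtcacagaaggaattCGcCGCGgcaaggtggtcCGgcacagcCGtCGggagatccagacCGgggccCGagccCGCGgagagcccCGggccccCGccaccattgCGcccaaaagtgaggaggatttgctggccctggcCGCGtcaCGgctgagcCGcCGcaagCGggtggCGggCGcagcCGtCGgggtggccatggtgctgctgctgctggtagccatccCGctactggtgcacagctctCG
Slitrk1: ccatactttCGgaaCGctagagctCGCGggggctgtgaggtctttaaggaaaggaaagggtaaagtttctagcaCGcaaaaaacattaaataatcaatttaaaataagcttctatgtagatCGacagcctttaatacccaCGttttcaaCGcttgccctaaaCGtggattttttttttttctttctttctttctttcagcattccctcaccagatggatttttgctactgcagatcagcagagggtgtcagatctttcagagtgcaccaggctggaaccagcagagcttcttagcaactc
Slitrk6: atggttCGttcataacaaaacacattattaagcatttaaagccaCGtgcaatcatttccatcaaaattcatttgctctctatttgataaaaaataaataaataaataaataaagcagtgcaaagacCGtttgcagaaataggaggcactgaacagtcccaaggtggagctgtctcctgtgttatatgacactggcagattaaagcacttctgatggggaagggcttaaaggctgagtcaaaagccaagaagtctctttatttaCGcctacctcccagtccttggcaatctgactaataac
Cbln3: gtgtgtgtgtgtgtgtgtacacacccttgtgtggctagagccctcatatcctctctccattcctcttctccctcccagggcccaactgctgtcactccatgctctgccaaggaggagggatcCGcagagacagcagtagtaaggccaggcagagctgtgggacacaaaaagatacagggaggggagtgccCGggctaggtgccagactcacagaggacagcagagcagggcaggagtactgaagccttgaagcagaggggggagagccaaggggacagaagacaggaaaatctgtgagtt

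The ratio of observed to expected CpG divides the CpG count by that given by the window's C and G content. At a ratio of 0.6 or more, called CpG-rich here, were 20 of 35 members (57.1%), against 49.6% of 16564 protein-coding genes with a window. The median ratio was 0.64 in members and 0.59 in protein-coding genes. Of the 20 CpG-rich members 19 were detected, beside 87.3% of protein-coding genes with a CpG-rich window. Of the 15 CpG-poor members 13 were detected (86.7%), beside 30.5% of protein-coding genes with a CpG-poor window. The CpG-poor members had a median of 12.8 FPKM and the CpG-rich members 14.2 FPKM, while protein-coding genes had medians of 0.0656 FPKM with a CpG-poor and 8.90 FPKM with a CpG-rich window. Detection thus differed far less between CpG-poor and CpG-rich windows among members than among protein-coding genes, a difference that was not tested. The CpG-poor windows compared are unlike, with a median ratio of 0.41 in members and 0.23 in protein-coding genes. Those of members also include the windows of Nrxn3, Adgrl2 and Lrrtm1, which lie more than 1 kb inside the gene.

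Single genes departed from the order of these classes. Clstn3 at 125.9 FPKM had a ratio of 0.33 and Nrxn3 at 28.4 FPKM a ratio of 0.12, both CpG-poor. The Nrxn3 window lies inside the gene, and Nrxn3 has other windows in the table, the highest at 0.59. C1ql4, the lowest member, had a ratio of 0.76 in its window inside the gene, and C1ql3, which was 2429-fold higher, had 0.76 too. The other undetected members were CpG-poor, Slitrk6 at 0.36 and Cbln3 at 0.08. Clstn2 at 16.5 FPKM had the highest ratio, 1.11, and Ptprf at 10.5 FPKM the next, 1.05. Across the 35 members the Spearman rho of this ratio and FPKM was 0.29, against 0.64 across protein-coding genes with a window, both as descriptions from 1 library. Methylation of these windows was not analysed here.

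**Figure D5:**
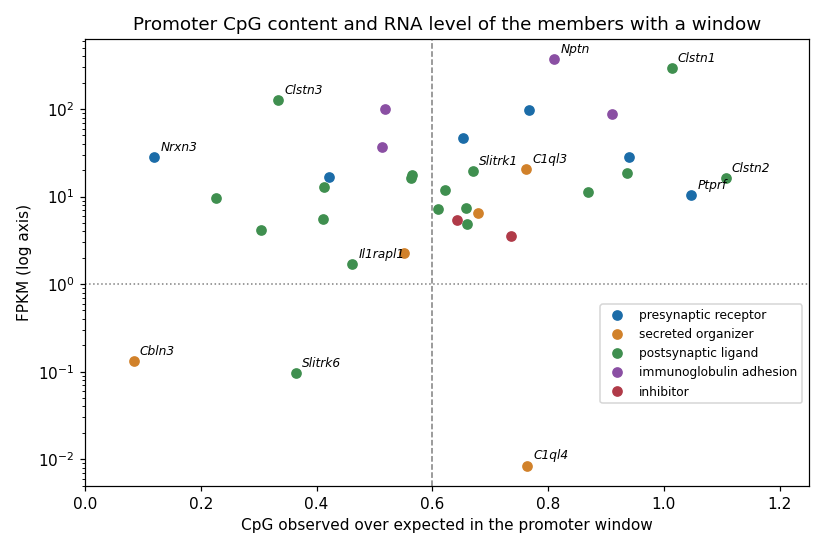
FPKM (y axis, log scale) against the ratio of observed to expected CpG in the promoter window (x axis) for 35 members, coloured by role; the dashed line marks 0.6 and the dotted line 1 FPKM. Clstn3 and Nrxn3 lie high left of the dashed line, and C1ql4 lies lowest to the right of it.

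Motifs were searched in the same windows on both strands. GGGCGG, the GC box bound by Sp proteins, was in 16 of 35 members (45.7%) and in 47.6% of protein-coding genes. TATAAA, the TATA box, was in 2 members (5.71%), Adgrl2 and Lrrtm4, and in 12.7% of protein-coding genes. TGACGTCA, the full cyclic AMP response element, was in 3 members (8.57%), Clstn2, Clstn3 and Ptprs, and in 2.38% of protein-coding genes. TTCAGCACC, the left part of the site of the repressor REST, was in 1 member, Mdga1, and in 0.404% of protein-coding genes. A match describes only the letters of the window.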

How the data were processed

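RNA was measured in 1 sample of mouse mPFC. Per the submitters' processing notes, the tools were CASAVA 1.8.2, TopHat and Cufflinks, with the build mm10, and the FPKM values are those the authors deposited. Not given in the sources used here are the versions of the last 2, the gene annotation, the strand setting and how replicates were combined. FPKM divides by an assumed transcript length, so errors in that length or in shared reads enter each comparison between genes.

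Ensembl identifiers were matched to symbols for 45139 of 46073 rows, and classes and coordinates came from RefSeq for GRCm38.p6, the assembly of mm10, by symbol. The depth is unknown. The low values of 1597 short, mostly single-exon genes (500 to 1500 bases) were examined for steps, and at most 23 genes shared a value of FPKM times length less 204 bases within 0.01%, so fragment counts were not recovered and no counting interval is given. Medians, ratios, shares and counts were computed with Python 3.11.15, numpy 2.4.6, pandas 2.3.3 and scipy 1.17.1, and figures with matplotlib 3.10.9. The functions were checked on constructed data with known answers.

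The rule for named genes takes all members, the 3 highest and 2 lowest of each partner or comparison list, the highest and lowest marker of each marker list the text describes by level, and genes that overlap a member. A few genes that the rule takes are left unreported, and list counts and medians include them. Genes named as known partners of a member were added after their values were seen. The members and lists were chosen with earlier results of these data known. Protein sequences were not used here, so the planned comparison of protein tails and identity was not run. Alternatives covered the floor, scaling, summary, pseudocount, fold limit and CpG limit.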

Additional observations from a re-analysis of the deposited data

How the results depend on the processing

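The count of detected members stayed between 43 and 44 at floors of 0.5 and 2 FPKM and after rescaling. Mitochondrial rows held 50.04% of all summed FPKM, so rescaling moves absolute limits, and moves no plain ratio between genes. With all rows scaled to a sum of 1000000, 7 members were at 100 or more, and with rows outside the mitochondrial genome scaled to that sum 9 were, against 3 as deposited, while those at 10 or more numbered 29 and 38, against 26. The members' median was 11.995 FPKM as deposited, 13.1 as a geometric mean, 12.9 over detected members, 11.7 without the members that overlap another protein-coding gene and 30.5 with rows outside the mitochondrial genome scaled to that sum. At a 4-fold limit 14 of 64 paralog pairs were apart, against 39 at 2-fold, and 40 were apart with a pseudocount of 0.1 and, likewise, with rows outside the mitochondrial genome rescaled. The rho of span and FPKM was 0.30 over detected members and 0.40 over all. At a CpG ratio of 0.75, 11 members (31.4%) and 34.99% of protein-coding genes were CpG-rich. Counting any window of a gene, a choice made after seeing the data, gave 21 CpG-rich members in place of 20. The lead of the highest over the next paralog kept its side of 2-fold in 26 of 26 recalculations. These changed only the pseudocount to 0.1 or the scaling, which brings the measure nearer the plain ratio. Every plain lead was at most 1.55-fold or at least 2.32-fold, so none could change side, and the count is no check. The largest lead, that of Adgrl1, was 3.37-fold, so no family leader was apart from the next at the 4-fold limit. No paired analysis was possible because the table holds 1 RNA sample, and leaving out replicates could not be run for the same reason. Values near 0, such as those of C1ql4, Slitrk6 and Cbln3, rest on an unknown number of fragments.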

Other observations

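The netrin-G and NGL family genes, further synaptic adhesion genes outside the members, were all detected. The NGL family genes stood at similar levels, Lrrc4b at 32.6, Lrrc4c at 31.3 and Lrrc4 at 22.6 FPKM, with Lrrc4b 1.04 times Lrrc4c. Lrrc4b is listed by family and is not counted here as a netrin-G ligand. The presynaptic netrin-G genes were lower, Ntng2 at 8.80 and Ntng1 at 5.35 FPKM, each below Lrrc4c and Lrrc4. In this list the postsynaptic NGL genes thus stood above the presynaptic netrin-G genes, without regard to which proteins bind each other. Among the members, as grouped by assigned role, the order was opposite (29.7 FPKM for presynaptic receptors, against 10.5 FPKM for postsynaptic ligands, as medians). With 5 genes and 1 sample no test bears on this.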
